A study of Mus musculus with 14 samples.

Results

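The genes described here encode the 4 classic families of guidance cues and their receptors: semaphorins with plexins and neuropilins, ephrins with Eph receptors, Slits with Robos, and netrins with Unc5 receptors. They were taken by symbol, as every gene name on the array that fits these families, and numbered 68 of the 36413 gene names in the value table. Of the 68, 20 were semaphorins, 11 plexins and neuropilins, 8 ephrins, 14 Eph receptors, 7 Slits and Robos, and 8 netrins and Unc5 receptors. No measured value entered this rule, but the members were chosen with earlier results of these data known.

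The arrays compared D2A1 cells, a mouse breast cancer line, with mouse embryonic fibroblasts (MEFs) that either lacked Hsf1, the gene of a heat shock transcription factor, or were wild type (WT). There were 7 groups of 2 arrays: tumor cells co-cultured with null MEFs, tumor cells co-cultured with WT MEFs, tumor cells alone, null MEFs co-cultured with tumor cells, WT MEFs co-cultured with tumor cells, null MEFs alone and WT MEFs alone. Co-culture lasted 72 hours in DMEM with 10% serum, after which the cell types were separated by flow sorting. MEFs that served as partners for profiled tumor cells had been given mitomycin C at 10 µg/ml for 2 hours. The labels do not state which part of Hsf1 was deleted or how many embryos or clones the MEFs came from, nor that the 2 replicates were separate cultures. A difference between null and WT MEFs is therefore a difference between these MEF preparations, and p-values measure the spread between these samples, which may be technical.

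Guidance cues were first described in growing axons, where they attract or repel the growth cone, and they also act on endothelial, epithelial and tumor cells. Class 3 semaphorins and Slits are secreted, most other semaphorins and all ephrins are bound to the cell that makes them, and plexins, Eph receptors, Robos and Unc5 proteins read them on the receiving cell. Neuropilins are co-receptors that hold most class 3 semaphorins on plexins. In a culture of 2 cell types, ligand and receptor can thus be made by different cells.

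Because null MEFs lack Hsf1, the promoters were searched on both strands for a pair of inverted heat shock element units, spelled GAANNTTC or TTCNNGAA. RefSeq promoters (GRCm38.p6) were found for 59 of the 68 genes, 75 in all, and the 250 bases before each start were read. Such a pair stood in 1 of the 75 (1.33%), against 4218 of 32851 promoters of all genes (12.8%). A run of 3 such units stood in 0 of the 75, against 153 of the 32851 (0.466%). The 3 promoters shown are those of Slit3 and Slit2, which had the largest differences between null and WT MEFs, and of Sema4b, the promoter with the match, which is in capitals. All are on the plus strand, at chr11:35121206-35121455 (Slit3), chr5:47982905-47983154 (Slit2) and chr7:80186620-80186869 (Sema4b). Sema4b has another start with no match. A match is a run of letters and not a measured site, and its absence says only that these letters are not in this window.
Slit3: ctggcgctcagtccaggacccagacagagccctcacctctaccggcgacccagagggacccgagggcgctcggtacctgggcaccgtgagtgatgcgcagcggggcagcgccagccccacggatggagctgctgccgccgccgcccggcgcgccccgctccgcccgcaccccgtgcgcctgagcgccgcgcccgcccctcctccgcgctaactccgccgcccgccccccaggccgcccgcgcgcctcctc
Slit2: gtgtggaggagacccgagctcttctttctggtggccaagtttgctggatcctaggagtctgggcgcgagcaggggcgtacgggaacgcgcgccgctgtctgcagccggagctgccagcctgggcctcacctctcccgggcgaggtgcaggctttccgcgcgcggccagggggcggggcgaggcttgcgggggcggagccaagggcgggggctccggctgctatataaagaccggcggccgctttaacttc
Sema4b: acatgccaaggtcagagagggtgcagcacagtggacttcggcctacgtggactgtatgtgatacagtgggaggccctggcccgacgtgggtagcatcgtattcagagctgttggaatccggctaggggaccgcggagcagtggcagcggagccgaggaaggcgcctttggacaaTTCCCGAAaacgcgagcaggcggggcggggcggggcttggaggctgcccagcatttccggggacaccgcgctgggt

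All levels are log2 values of the authors' table, in which genes at the background of the array lie at the bottom of the scale. A level was counted as measured in a group when the scanner marked it well above background there on every array with a sound scanner file. By that rule 39 of the 68 genes were measured in all 7 groups and 61 in at least 1 group, and these 61 were tested. The other 7 (Epha6, Epha10, Ephb1, Ntn5, Sema4f, Unc5a and Unc5d) were measured in no group and read between 4.64 and 6.18 on the 14 arrays. No probe of the 68 was marked saturated on an array with a sound scanner file. Tests used limma over all 25896 names that were measured somewhere, and a gene "passed" at an adjusted p under 0.05. Differences are given as log2 ± SE, with 2 arrays on each side, and every pass of a guidance gene had the same sign on both slides. Several comparisons share a control group, so their results are given side by side.

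**Figure D1:**
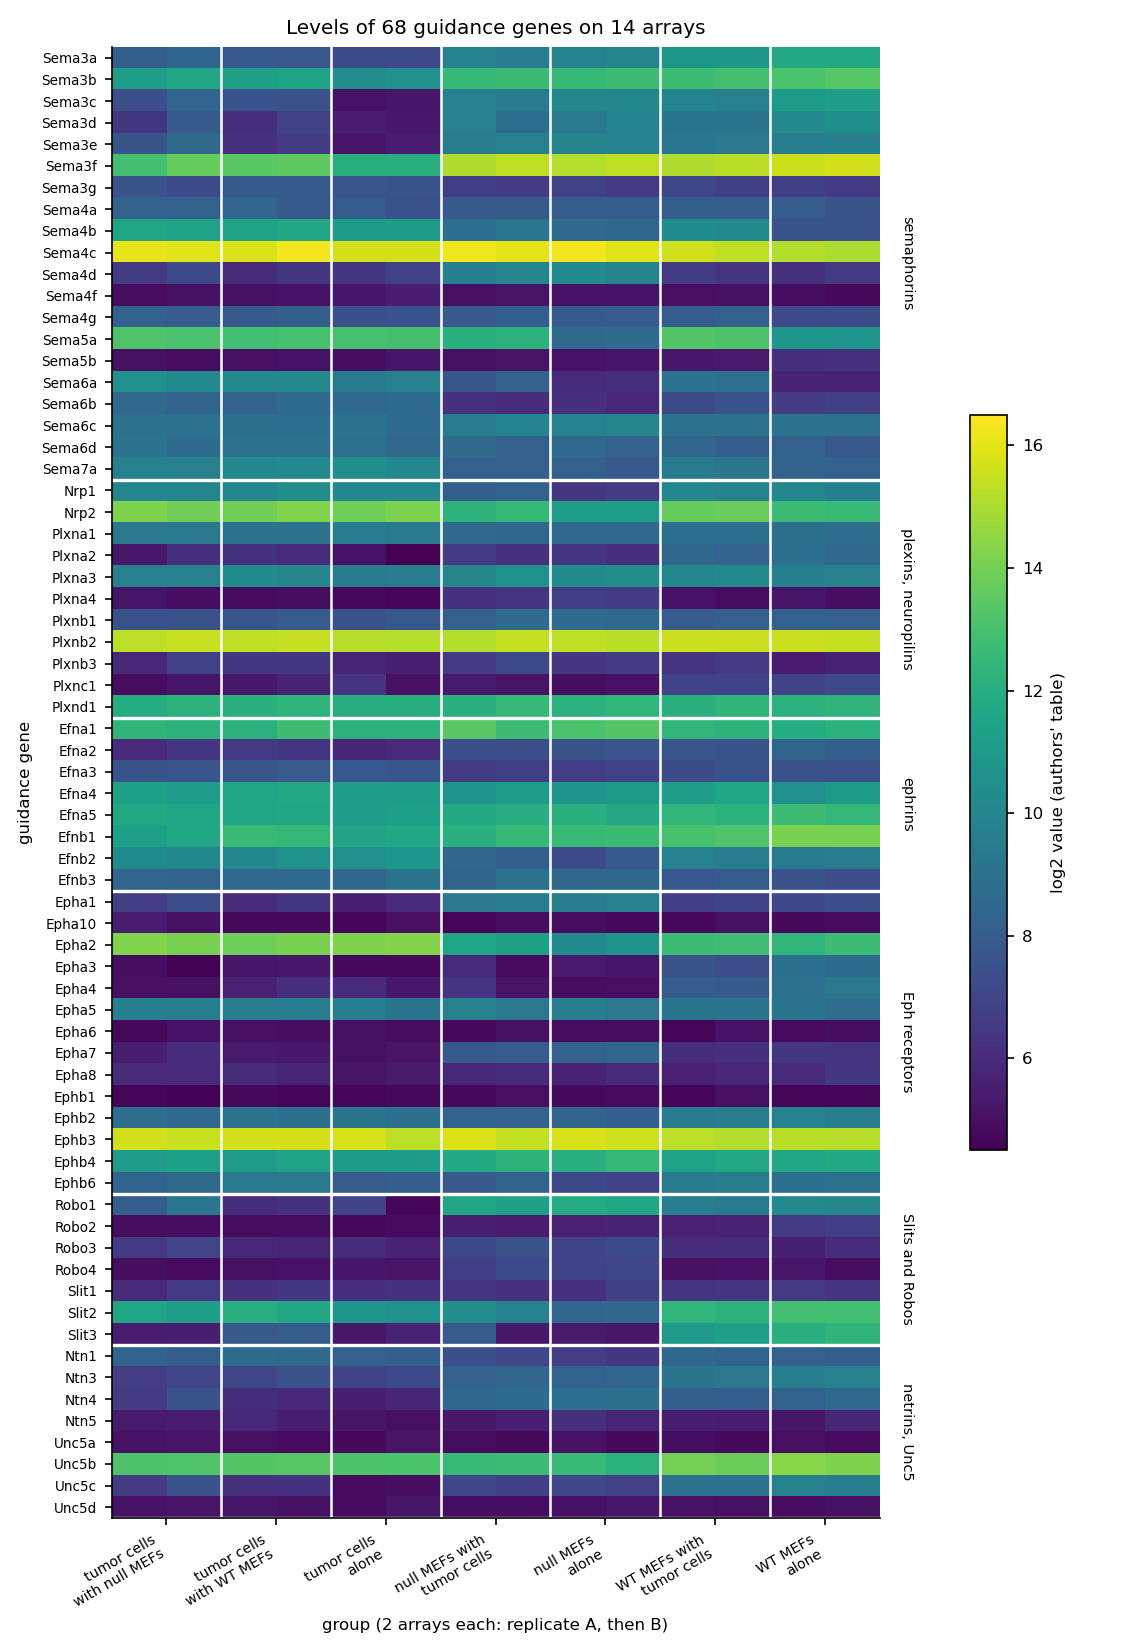
Log2 level of each of the 68 guidance genes (rows, by family) on the 14 arrays (columns, 2 per group, replicate A then B), as a colour scale from low (dark) to high (yellow). Sema4c, Plxnb2 and Ephb3 are bright on all 14 arrays, while the class 3 semaphorins, apart from Sema3g, are brighter in the MEF columns than in the columns of tumor cells alone.

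Some arrays stood apart, and this bears on the co-culture results. On 2 arrays, both replicate A (the null-partner tumor cells and the lone tumor cells), the scanner had marked 36.8% and 32.1% of spots as outliers, against 0.246% to 5.74% on the other 12, so the authors' table was used. On these 2 arrays the table correlated with the scanner intensities at only r = 0.197 and 0.0895, and the reason was not tested. Their table values are thus unchecked, and what counted as measured in these groups rests on array B. Hsf1 mRNA read 10.07 and 9.97 in null MEFs alone, against 12.01 and 11.69 in WT MEFs alone, and whether its probe lies in the deleted part is not recorded. Sorted cells carried RNA typical of their partner. Genes at least 32-fold higher in the co-cultured MEFs than in lone tumor cells stood at a median of 9.77% and 23.9% of that MEF level in tumor cells sorted from null MEFs (A and B, 259 genes) and at 7.35% and 7.27% in those sorted from WT MEFs (234 genes). The 16 fibroblast markers summed, on a linear scale, to 100750 and 238785 in tumor cells with null MEFs and to 129711 and 126094 with WT MEFs, against 32030 and 35922 in tumor cells alone. Tumor-typical genes stood at a median of 9.08% and 9.51% of the tumor level in co-cultured null MEFs (90 genes), and at 37.9% and 38.0% in co-cultured WT MEFs (77 genes). The tumor level in such shares is that of tumor cells sorted from co-culture with the same MEF genotype. The 12 epithelial markers summed to 28016 and 41368 in null MEFs with tumor cells, against 4090 and 4931 in null MEFs alone. In WT MEFs with tumor cells they summed to 74218 and 85508, against 1303 and 1439 in WT MEFs alone. Krt18 was the main one in co-cultured MEFs, averaging 14.87 in null and 16.26 in WT MEFs. In lone MEFs Krt19 was higher, at 11.84 in null and 8.71 in WT MEFs, against 7.65 and 8.01 for Krt18. Krt19 averaged 5.36 in tumor cells alone and 11.75 in tumor cells with null MEFs. Epcam and Cdh1, which define epithelial cells, read near background also in tumor cells. In addition, 43 genes typical of WT MEFs (32-fold above both null MEFs and tumor cells) stood at a median of 6.6% of the WT level in co-cultured null MEFs A (quartiles 6.13% and 7.43%), against 1.67% in B and 1.76% and 2.00% in null MEFs alone. In bulk RNA, fewer cells of a type and less RNA per cell cannot be told apart.

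Tumor cells and MEFs differed in most guidance genes. Among the 19 tested semaphorins, the secreted class 3 genes Sema3a, Sema3b, Sema3c, Sema3d, Sema3e and Sema3f were lower in tumor cells than in either MEF line. The membrane-bound Sema4b, Sema5a, Sema6a, Sema6b and Sema7a and the secreted Sema3g were higher than in both. Both comparisons use the same arrays of tumor cells alone. Against WT MEFs, 42 of 61 guidance genes passed (13 higher and 29 lower in tumor cells), where 51.4% of all names tested passed (27.8% higher and 23.6% lower). Against null MEFs, 46 passed (17 higher, 29 lower), where 52.6% of all names passed (27.3% higher and 25.4% lower). The median difference of the 61 was -0.31 against WT MEFs and -0.35 against null MEFs, while that of all names was 0.08 and 0.07.

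Sema3c, a secreted ligand of neuropilin and plexin receptors, read 5.11 and 5.21 in tumor cells, against 10.08 and 10.09 in null MEFs and 11.05 and 11.18 in WT MEFs. It was not measured in tumor cells and was at least 30.4-fold lower there than in null MEFs (-4.93 ± 0.25) and at least 62.3-fold lower than in WT MEFs (-5.96 ± 0.25, adjusted p = 1.92e-08). Sema3e, which binds Plxnd1 without a neuropilin, read 5.22 and 5.46 in tumor cells, against 9.88 and 9.83 in null MEFs and 9.61 and 9.66 in WT MEFs. Its differences were -4.52 ± 0.26 and -4.29 ± 0.26. Sema3d stood at 5.45 and 5.26 in tumor cells, against 9.32 and 9.89 in null MEFs and 10.13 and 10.47 in WT MEFs. The bounds for Sema3d were 19-fold and 30.7-fold. Sema3a, the first repellent of the class to be purified and a ligand of Nrp1, was measured in tumor cells, at 7.14 and 7.13, against 9.76 and 9.95 in null MEFs and 11.76 and 11.77 in WT MEFs (-2.72 ± 0.11 and -4.62 ± 0.11). For each of these 4 genes all tumor arrays lay below all MEF arrays. Sema3f, a ligand of Nrp2, was highly expressed in every group but was likewise 9.12-fold lower than in null MEFs and 12-fold lower than in WT MEFs. Sema3b was 4.37-fold and 6.74-fold lower.

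Of the semaphorins that were higher in tumor cells, Sema6a stood furthest above WT MEFs and Sema5a furthest above null MEFs. Sema6a, a ligand of Plxna2 and Plxna4, read 9.39 and 9.75 in tumor cells, against 6.02 and 6.14 in null MEFs and 5.70 and 5.70 in WT MEFs. That is 3.49 ± 0.19 above null MEFs and 3.87 ± 0.19 above WT MEFs (adjusted p = 1.07e-07 and 5.08e-08). Sema5a, which carries thrombospondin repeats beside its semaphorin domain, read 12.99 and 12.96 in tumor cells, against 8.65 and 8.72 in null MEFs and 10.84 and 10.80 in WT MEFs. Its excess was 4.29 ± 0.10 over null MEFs and 2.16 ± 0.10 over WT MEFs. Sema4b was 2.44 ± 0.13 above null MEFs and 3.46 ± 0.13 above WT MEFs, Sema6b 2.66 ± 0.18 and 1.99 ± 0.18 above, and Sema7a, a lipid-anchored ligand of Plxnc1, 2.18 ± 0.14 and 1.94 ± 0.14 above. Sema3g was 0.94 ± 0.14 and 0.93 ± 0.14 above. Sema4d, the ligand of Plxnb1, read 6.4 and 6.82 in tumor cells, against 10.28 and 9.89 in null MEFs and 6.25 and 6.52 in WT MEFs. It passed against null MEFs (-3.47 ± 0.26) and did not pass against WT MEFs.

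Among receptors, tumor cells were high in Epha2, the kinase best known for ephrin-A1 binding in epithelial and tumor cells, which read 14.20 and 14.28, against 10.26 and 10.67 in null MEFs and 12.40 and 12.72 in WT MEFs. The excess was 3.77 ± 0.17 over null MEFs and 1.68 ± 0.17 over WT MEFs. Nrp2 was 2.80 ± 0.16 and 1.31 ± 0.16 above. Nrp1 read 10.11 and 10.07 in tumor cells, against 6.4 and 6.57 in null MEFs (3.61 ± 0.15 higher in tumor cells), and it did not pass against WT MEFs, at 9.98 and 9.70. The Slit receptor Robo1 read 6.95 and 4.70 in tumor cells, against 11.86 and 11.71 in null MEFs and 10.15 and 10.07 in WT MEFs. The tumor arrays differed from each other by more than 2 log2 units, yet both lay below every MEF array, and the bounds were 59.6-fold and 18.7-fold. Without tumor array B the differences were -4.84 from null and -3.17 from WT MEFs, against -5.97 and -4.29 with it, and without array A -7.09 and -5.41. Unc5c, a netrin receptor, read 4.86 and 4.93 in tumor cells, against 7.04 and 6.84 in null MEFs (at least 4.12-fold) and 9.76 and 9.62 in WT MEFs (at least 27.7-fold). Epha1 read 5.56 and 5.92 in tumor cells, against 9.54 and 9.75 in null MEFs, and was at least 15-fold lower. Plxna2, a plexin for class 3 and class 6 semaphorins, was at least 2.51-fold below null MEFs and 13.7-fold below WT MEFs, and Epha3, which read 4.83 and 4.81, at least 15.8-fold below WT MEFs. Slit3, a secreted Robo ligand, read 5.32 and 5.70 in tumor cells, against 12.07 and 12.29 in WT MEFs, a bound of 102-fold (-6.68 ± 0.59, adjusted p = 4.37e-06). It was not measured in null MEFs either.

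Ephrins and netrins differed in both directions. The transmembrane ligands Efnb2 and Efnb3 were higher in tumor cells than in WT MEFs (1.16 ± 0.23 and 1.36 ± 0.22), Efnb2 also than in null MEFs (3.12 ± 0.23), and Efnb1 was lower than in both (-1.07 ± 0.17 against null and -2.52 ± 0.17 against WT MEFs). Efna2 and Efna5 were lower than in both MEF lines as well. Ntn4, a laminin-like basement membrane protein, was at least 9.61-fold lower in tumor cells than in null MEFs and 6.78-fold lower than in WT MEFs, and Ntn3 2.33-fold and 6.13-fold lower. Ntn1, the founding netrin, was 1.62 ± 0.15 higher in tumor cells than in null MEFs. Further passes against at least 1 MEF line were Plxna1, Sema4c, Sema6d, Efna3, Ephb2 and Unc5b (higher against at least 1) and Efna1, Epha4, Epha7, Epha8, Ephb4, Ephb6, Plxna3, Plxna4, Plxnb1, Plxnb3, Plxnc1, Robo2, Robo3, Robo4, Sema4g, Sema5b and Sema6c (lower against at least 1). Ephb2, Ephb6, Unc5b and Slit2 passed in opposite directions against the 2 MEF lines, Slit2 at 2.20 ± 0.23 against null MEFs and -2.21 ± 0.23 against WT MEFs. The Sema6d result rests on probes that disagree: 1 probe read 1.11 above WT MEFs and the other -0.57, on the scanner scale. With single arrays left out, Ephb4, Plxnb1, Sema4c and Sema6d lost their pass against WT MEFs at least once, and Epha8, Plxnb3 and Sema4g theirs against null MEFs.

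Null MEFs differed from WT MEFs in most guidance genes, with Slit2, Slit3, Epha3, Epha4 and Nrp1 far lower and Sema4d and Epha1 far higher. In MEFs alone 42 of 61 genes passed, 15 higher and 27 lower in null MEFs, where 33.8% of all names passed (17.9% higher and 15.9% lower). The median of the 61 was -0.25, that of all names 0.03. By family, 5 semaphorins were higher and 6 lower, 3 plexins and neuropilins higher and 4 lower, 2 ephrins higher and 5 lower, 2 Eph receptors higher and 5 lower, 3 Slits and Robos higher and 3 lower, and 4 netrins and Unc5 receptors lower. Of 16 fibroblast markers 2 were higher and 9 lower in null MEFs, with a median of -1.03, and their summed level was 497686 and 529684 in null MEFs, against 1082403 and 1075774 in WT MEFs. The part of this general difference in the guidance genes was not tested.

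**Figure D2:**
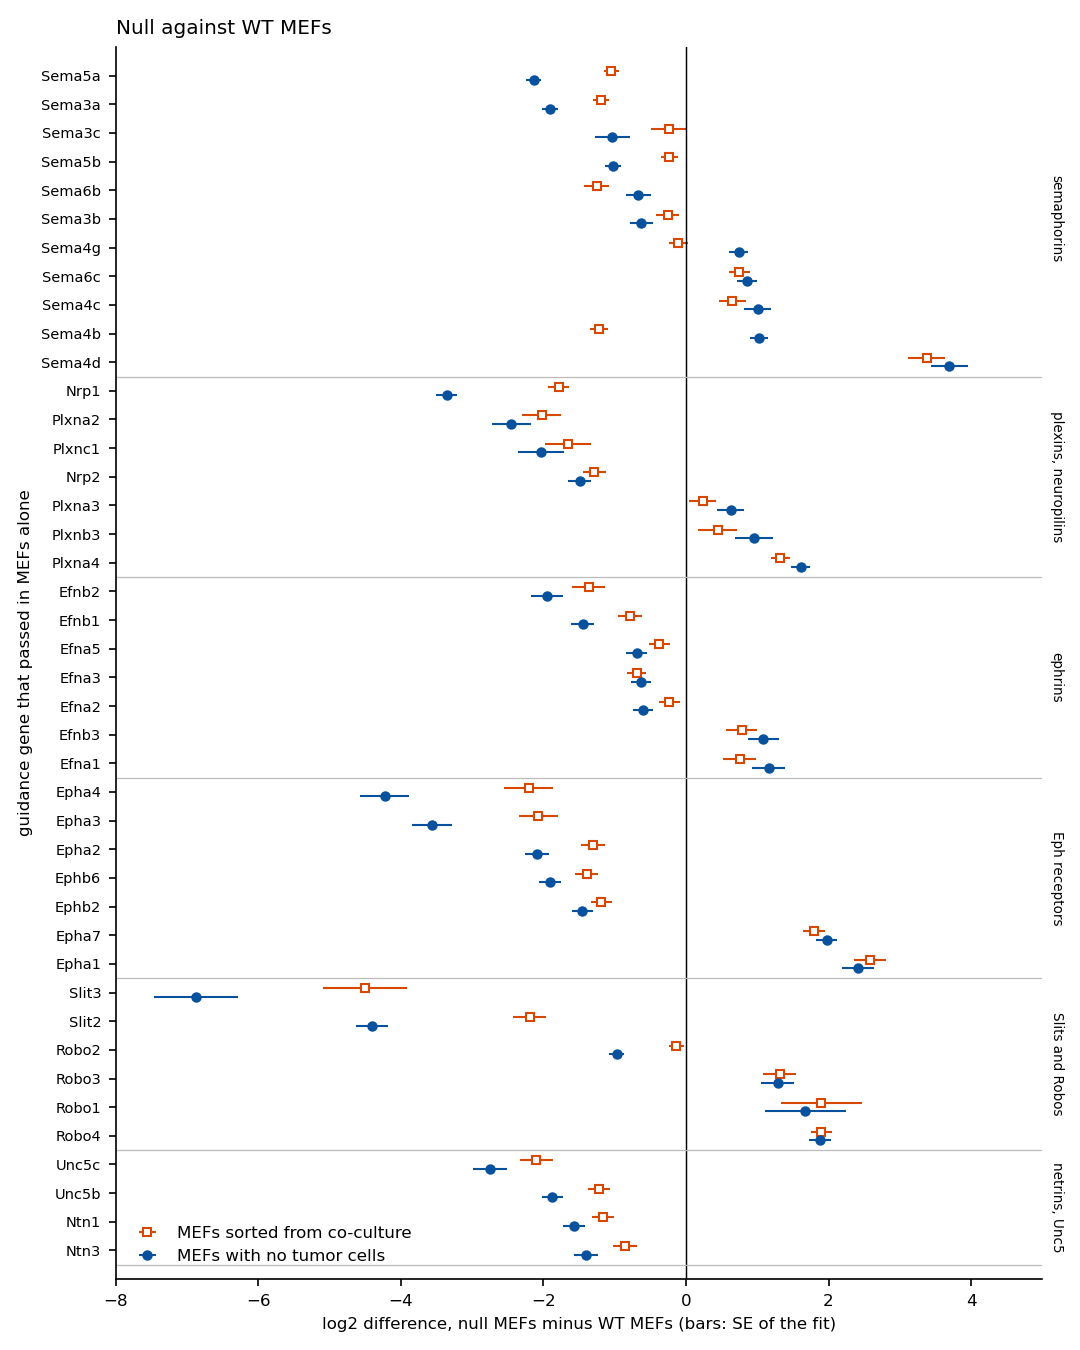
Log2 difference, null MEFs minus WT MEFs, of the 42 guidance genes that passed in MEFs alone, by family; filled circles are MEFs alone, open squares are MEFs sorted from co-culture, and bars are the SE of the fit. Slit3 lies furthest left at -6.87 in MEFs alone, Sema4d furthest right at 3.70, and Sema4b lies on opposite sides of 0 in MEFs alone and in co-cultured MEFs.

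Slit3 read 5.36 and 5.26 in null MEFs, against 12.07 and 12.29 in WT MEFs. It was at the background of the array in null MEFs and among the well expressed genes in WT MEFs, at least 117-fold apart (-6.87 ± 0.59, adjusted p = 6.83e-06). Its probe lies on chr11:35521559-35521618 (mm9, per the file headers). Slit2, the better studied ligand of Robo1 and Robo2, read 8.41 and 8.56 in null MEFs, against 12.92 and 12.87 in WT MEFs (probe at chr5:48696673-48696732, mm9). The groups lay far apart, with null MEFs 21.3-fold lower (-4.41 ± 0.23, adjusted p = 2.11e-07). Of the Robo receptors, Robo3 was 1.29 ± 0.23 higher in null MEFs, Robo4, known from endothelial cells, read 6.94 and 7.07 in null MEFs, against 5.28 and 4.97 in WT MEFs (at least 3.69-fold higher in null MEFs), and Robo2 was lower (-0.97 ± 0.10). Robo1 read 11.86 and 11.71 in null MEFs, against 10.15 and 10.07 in WT MEFs. The groups did not overlap, but Robo1 varied widely between tumor arrays, which enter the common variance, so its 1.68 ± 0.57 passed narrowly (adjusted p = 0.0439), and it did not pass with any 1 of the 4 MEF arrays left out (adjusted p from 0.121 to 0.154). The 10 endothelial markers summed to 22515 and 28549 on a linear scale in null MEFs, against 11185 and 12932 in WT MEFs. Egfl7 makes up most of these sums, averaging 14.60 in null MEFs, against 13.49 in WT MEFs. Of the 5 tested, 1 was higher and 1 lower, with a median of 0.0040. Pecam1 averaged 7.25 in null MEFs, against 7.30 in WT MEFs, and Vwf 5.85, against 6.73. Cdh5, Tie1 and Emcn, which define endothelial cells, averaged 4.70 to 5.13 in null MEFs. Whether this bears on Robo4 was not tested.

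The EphA receptors diverged. Epha4, which binds both ephrin classes, read 4.88 and 5.0 in null MEFs, against 9.01 and 9.31 in WT MEFs, and Epha3 read 5.34 and 5.16 in null MEFs, against 8.90 and 8.73 in WT MEFs. Neither was measured in null MEFs, and the bounds were 18.7-fold and 11.8-fold lower. Epha2 was lower (-2.09 ± 0.17), the kinase-inactive Ephb6 differed by -1.91 ± 0.16 and Ephb2 by -1.45 ± 0.15. In the opposite direction, Epha1 read 9.54 and 9.75 in null MEFs, against 7.08 and 7.37 in WT MEFs (2.42 ± 0.23), and Epha7 was 1.97 ± 0.15 higher. For Epha7 the 3 probes gave 1.16, 3.30 and 4.06 on the scanner scale, which differ in size but not in sign. The ephrin ligands Efnb2 (-1.95 ± 0.23), Efnb1 (-1.45 ± 0.17), Efna5, Efna3 and Efna2 were lower and Efna1 (1.16 ± 0.23) and Efnb3 (1.08 ± 0.22) higher. For Efna3 the 2 probes gave -0.47 and -3.05.

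Nrp1, the co-receptor of Sema3a and of vascular endothelial growth factor, read 6.4 and 6.57 in null MEFs, against 9.98 and 9.70 in WT MEFs. It was 10.3-fold lower in null MEFs (-3.36 ± 0.15, adjusted p = 7.79e-08), and its ligand Sema3a was 3.76-fold lower in the same cells (-1.91 ± 0.11). Nrp2 differed by -1.49 ± 0.16. Plxna2 read 6.41 and 6.18 in null MEFs, against 8.88 and 8.61 in WT MEFs (-2.45 ± 0.28), and Plxnc1, which was well above background on 1 of the 2 null arrays, differed by -2.04 ± 0.32. Plxnb3 and Plxna3 were higher by 0.95 ± 0.27 and 0.63 ± 0.19. Plxna4 was also higher, by 1.61 ± 0.13, but 1 of its probes gave 4.76 and the other, at background in all groups, -0.18.

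Sema4d read 10.28 and 9.89 in null MEFs, against 6.25 and 6.52 in WT MEFs, 13.0-fold higher (3.70 ± 0.26, adjusted p = 1.57e-06). No other of the 61 genes was as far above WT MEFs. Sema5a went the other way, at 8.65 and 8.72 in null MEFs, against 10.84 and 10.80 in WT MEFs (-2.13 ± 0.10). Sema4b and Sema4c were higher by 1.02 ± 0.13 and 1.0 ± 0.19, Sema6c by 0.86 ± 0.15 and Sema4g by 0.74 ± 0.13, and Sema3c, Sema5b, Sema6b and Sema3b were lower (-1.03, -1.02, -0.67 and -0.62). Sema5b was measured in lone WT MEFs only and entered the tests through that group, where it is high. Robo4 and Plxna4 likewise entered only through the 2 null MEF groups, where they are high. Epha3 and Epha4 entered only through the 2 WT MEF groups. Among the netrin genes, Unc5c read 7.04 and 6.84 in null MEFs, against 9.76 and 9.62 in WT MEFs (-2.75 ± 0.23). Unc5b, a receptor of Ntn1, differed by -1.87 ± 0.15, Ntn1 by -1.57 ± 0.15 and Ntn3 by -1.40 ± 0.17. With single arrays left out, Efna2, Plxna3, Plxnb3, Sema3b, Sema3c and Sema6b lost their pass at least once, beside Robo1, and the other 35 passed throughout.

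In MEFs sorted from co-culture, which share no array with MEFs alone, 35 genes passed (11 higher and 24 lower in null MEFs), where 29.5% of all names passed (14.7% higher and 14.8% lower). Of these, 32 had passed in the same direction in MEFs alone, 76.2% of the first list and 91.4% of the second. Such overlaps, here and between the co-culture responses below, were not counted for all names, so whether they are particular to guidance genes was not tested. Sema6a and Sema7a passed in co-culture and not in MEFs alone, both lower in null MEFs. Sema4b turned round: it was -1.22 ± 0.13 in co-culture, against 1.02 ± 0.13 in MEFs alone. Slit3 read 7.93 and 5.34 in co-cultured null MEFs, against 10.99 and 11.28 in co-cultured WT MEFs (-4.5 ± 0.59). The high value was on array A, the one on which WT-typical genes stood at 6.6% of the WT level, and Slit3 there stood at 5.24% of its level in WT MEFs alone, against 0.872% on B. Without that array the difference was -5.79. Epha4 and Epha3 were likewise higher on A than on B (6.31 against 5.14, and 5.94 against 4.85), and without A their differences were -2.79 and -2.62, against -2.21 and -2.07 with it. Sema4d (3.37 ± 0.26), Epha1 (2.58 ± 0.23), Robo4 (1.90 ± 0.15), Slit2 (-2.19 ± 0.23), Unc5c (-2.10 ± 0.23) and Plxna2 (-2.03 ± 0.28) kept their sign and passed with and without it. Robo1 (1.90 ± 0.57), Efna1, Efnb3 and Sema4c each lost their pass with at least 1 array left out, and the other 31 did not. Tumor-typical genes stood at 9.08% and 9.51% of the tumor level in null MEFs and at 37.9% and 38.0% in WT MEFs, and with this share subtracted and the rest rescaled 28 of the 35 passed in the same direction. Sema4b stood at 0.96 and Sema6a at 0.08, and Epha2 (-0.25), Sema6b (-0.07), Sema7a (-0.46), Efna3 (-0.44) and Robo1 (1.39) did not pass.

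MEFs of both genotypes differed from their lone cultures in some guidance genes after co-culture, with Sema5a and Sema6a higher in both. In null MEFs 8 of 61 passed, all higher, where 3.14% of all names passed (2.81% higher and 0.332% lower). In WT MEFs 15 passed, 7 higher and 8 lower, where 10.5% of all names passed (6.31% higher and 4.2% lower). Sema5a, Sema6a and Nrp2 passed in both, 37.5% of the null list and 20% of the WT list. The medians of the 61 were -0.02 in null and -0.06 in WT MEFs, next to -0.04 and -0.04 for all names.

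**Figure D3:**
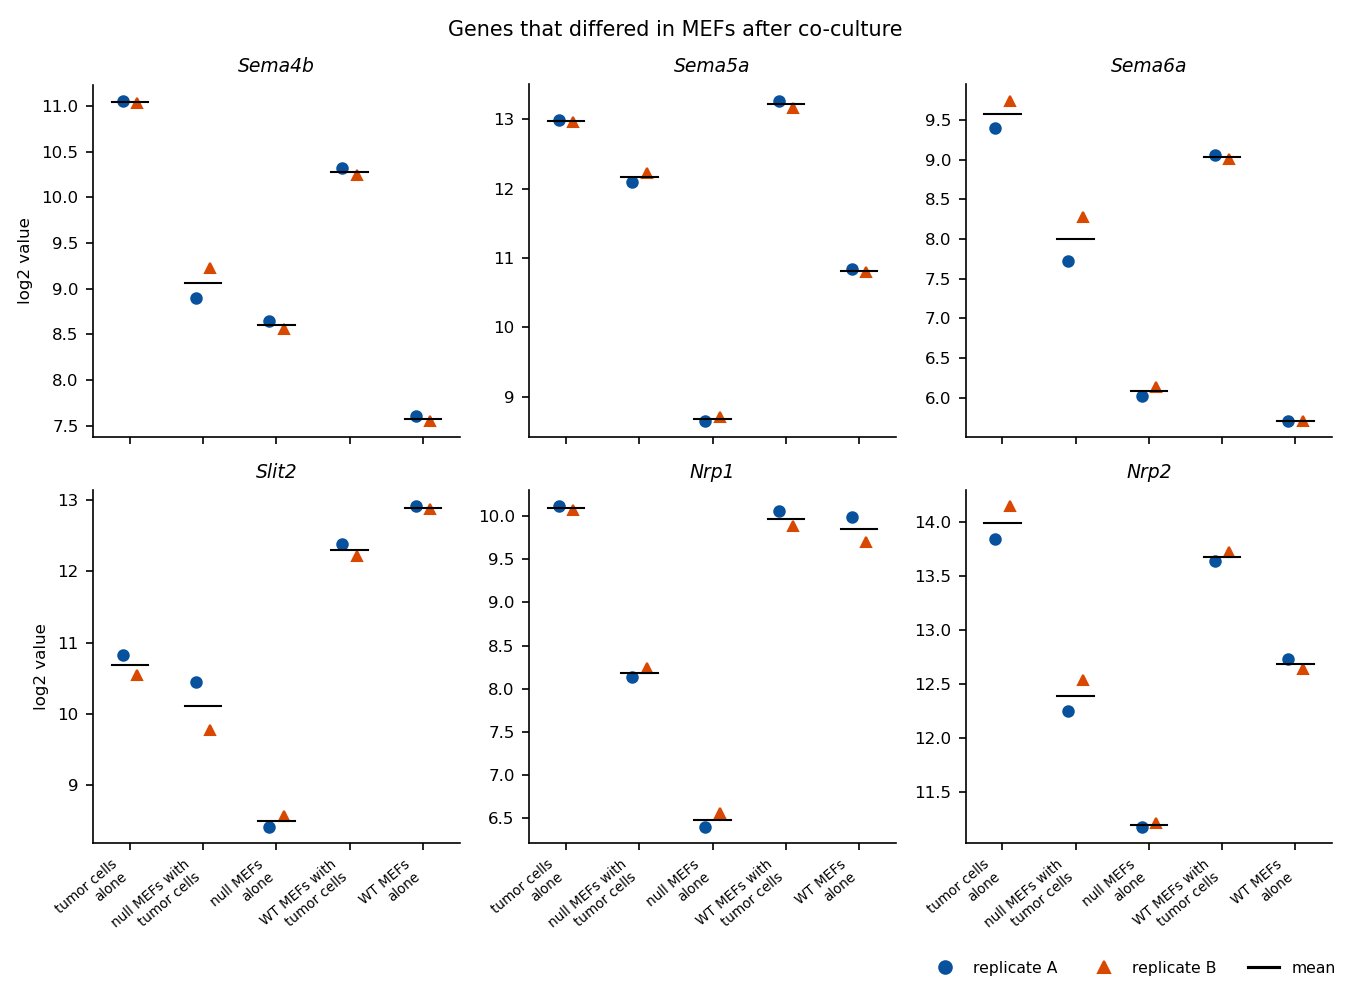
Log2 level on each array (circle, replicate A; triangle, replicate B; line, mean) of 6 guidance genes in tumor cells alone and in null and WT MEFs with and without tumor cells. Sema5a in co-cultured WT MEFs (13.27 and 13.15) reaches the level of tumor cells alone (12.99 and 12.96), Slit2 and Nrp1 are higher in co-cultured than in lone null MEFs, and Sema4b is 2.70 higher in co-cultured than in lone WT MEFs.

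Sema5a read 12.10 and 12.22 in null MEFs with tumor cells, against 8.65 and 8.72 in null MEFs alone, and 13.27 and 13.15 in WT MEFs with tumor cells, against 10.84 and 10.80 in WT MEFs alone. In both genotypes the co-cultured arrays lay well above the lone ones, by 3.48 ± 0.10 in null MEFs (11.1-fold, adjusted p = 2.04e-08) and 2.39 ± 0.10 in WT MEFs (5.25-fold, adjusted p = 1.02e-07). Taken as a share of the tumor level, the excess over lone MEFs was 44.5% and 48.8% in null MEFs and 103% and 93.6% in WT MEFs, above the medians of the tumor-typical genes (9.08% and 9.51%, and 37.9% and 38.0%). With the tumor share subtracted the rises were 3.33 and 2.54. Nrp2 read 12.25 and 12.54 in co-cultured null MEFs, against 11.18 and 11.22 alone (1.2 ± 0.16), and 13.64 and 13.72 in co-cultured WT MEFs, against 12.73 and 12.64 alone (1.0 ± 0.16). Its excess was 15% and 21.4% of the tumor level in null MEFs and 36.0% and 40.5% in WT MEFs, and less the tumor share it passed in WT MEFs (0.70) but not in null MEFs (0.84, adjusted p = 0.0536). On the scanner intensities of the 12 sound arrays the null value of Nrp2 was -0.04. That setting averaged the probes left after outlier spots were dropped on each array. Taken singly, the Nrp2 probes gave 0.65 and 1.67 on the scanner scale, and the reason for the gap was not tested. Sema6a read 7.73 and 8.28 in co-cultured null MEFs, against 6.02 and 6.14 alone, and 9.05 and 9.01 in co-cultured WT MEFs, against 5.70 and 5.70 alone (1.92 ± 0.19 and 3.33 ± 0.19). Its excess was 11% and 18.4% of the tumor level in null MEFs and 41.6% and 40% in WT MEFs, near the medians of tumor-typical genes. Subtracted, it passed in WT MEFs (1.39) and not in null MEFs (1.09, adjusted p = 0.124).

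Slit2 and Nrp1 rose in null MEFs. Slit2 read 10.45 and 9.76 with tumor cells, against 8.41 and 8.56 alone (1.62 ± 0.23, adjusted p = 0.00175), and Nrp1 read 8.14 and 8.23, against 6.4 and 6.57 (1.70 ± 0.15, adjusted p = 4.66e-05). Both co-cultured arrays lay above both lone arrays for each gene, and both genes stayed below their level in co-cultured WT MEFs. The rise of Slit2 was larger on array A, and without A it was 1.28 (adjusted p = 0.0109), as for Nrp1 it was 1.75. Their excess stood at 38.9% and 19.1% (Slit2) and 18.6% and 20.5% (Nrp1) of the tumor level, and less the tumor share both passed (1.37 and 1.27). These values include array A, on which genes typical of WT MEFs stood at 6.6% of the WT level. That RNA was not subtracted, and its part in the rises of Slit2 and Nrp1 was not tested. Ephb6 read 7.86 and 8.30 with tumor cells, against 7.12 and 6.98 alone (1.03 ± 0.16), and passed in the same settings (0.98 less the tumor share). Epha2 read 11.60 and 11.33, against 10.26 and 10.67 (1.0 ± 0.17), but its excess was 9.3% and 6.4% of the tumor level, it fell to -0.21 less that share, and it did not pass without array A (0.87, adjusted p = 0.0548). Ntn1 rose by 0.73 ± 0.15 and did not pass less the tumor share or without array A (0.54, adjusted p = 0.148).

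Sema4b, Sema7a, Sema4g and Sema6b also rose in WT MEFs. Sema4b read 10.32 and 10.25 with tumor cells, against 7.61 and 7.55 alone (2.70 ± 0.13, 6.51-fold, adjusted p = 2.15e-07), with an excess of 35.9% and 33.9% of the tumor level, close to the median of tumor-typical genes. Less that share it was -0.34. Sema7a read 9.40 and 9.22, against 8.32 and 8.22 (1.04 ± 0.14), with an excess of 32% and 25%, and 0.03 less that share. Sema4g rose by 0.90 ± 0.13 and passed less the tumor share (0.93), whereas Sema6b rose by 0.68 ± 0.18, turned to -1.31 less the share and lost its pass with any 1 of its 4 arrays left out. There were 8 genes that fell in WT MEFs. Epha3 read 7.58 and 7.35, against 8.90 and 8.73 (-1.35 ± 0.28), Sema3c 9.93 and 9.72, against 11.05 and 11.18 (-1.29 ± 0.25), and Epha4 7.99 and 7.88, against 9.01 and 9.31 (-1.23 ± 0.34). Efnb1 (-0.99 ± 0.17), Robo2 (-0.98 ± 0.10), Sema3a (-0.90 ± 0.11), Sema5b (-0.84 ± 0.11) and Efna2 (-0.59 ± 0.14) fell too. Sema5b was tested only because it was measured in lone WT MEFs, and it was not measured in co-cultured WT MEFs. The 330 genes typical of WT MEFs had a median difference of -0.69 (quartiles -0.89 and -0.51), and the 252 genes typical of null MEFs one of -0.14 in null MEFs. Less the tumor share Efnb1, Robo2 and Sema5b still passed (-0.74, -0.66 and -0.69), and Epha3, Epha4, Sema3a, Sema3c and Efna2 did not. Epha4 lost its pass with any 1 array left out, and Epha3, Sema3c and Efna2 with at least 1.

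The difference between the 2 responses was tested directly. It passed for 10 of 61 genes, where 3.03% of all names passed (1.07% positive and 1.96% negative). Slit2 (2.21 ± 0.32, adjusted p = 0.0036), Nrp1 (1.58 ± 0.21, adjusted p = 0.00204), Sema5a (1.09 ± 0.15), Robo2 (0.84 ± 0.14), Sema5b (0.79 ± 0.16) and Sema3a (0.72 ± 0.16) responded more positively in null MEFs. For Sema5b, measured in lone WT MEFs only, the null response sets background against background. Sema4b (-2.24 ± 0.18, adjusted p = 0.000104), Sema6a (-1.40 ± 0.27), Sema7a (-0.89 ± 0.20) and Sema4g (-0.85 ± 0.19) responded less. In WT MEFs Slit2 read 12.38 and 12.22 with tumor cells, against 12.92 and 12.87 alone, and Nrp1 10.05 and 9.89, against 9.98 and 9.70, and neither passed. Less the tumor share 3 of the 10 passed: Slit2 (1.75, adjusted p = 0.0456), Nrp1 (1.35, adjusted p = 0.0131) and Sema5a (0.79, adjusted p = 0.0348). The other 7 did not, with Sema4b at -0.06, Sema6a at -0.29, Sema7a at -0.21, Sema4g at -0.90, Sema3a at 0.19, Robo2 at 0.56 and Sema5b at 0.66. Only tumor RNA was taken off in these values, not the RNA typical of WT MEFs on array A of co-cultured null MEFs. Slit2, Nrp1, Sema5a and Sema4b passed whichever array was left out, and the other 6 did not. On the scanner intensities of the 12 sound arrays 0 of the 10 passed with limma, 8 of the 61 genes had an unadjusted p under 0.05, and all 10 kept their sign.

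In tumor cells Sema3a, Sema3b, Sema3c, Sema3e, Sema3f and Unc5c were higher after either partner than in tumor cells alone, though not all of these stood once the share of MEF RNA was taken off. With null MEFs as partners, 18 of 61 passed in tumor cells, 17 above and 1 below the lone tumor cells, where 19.7% of all names passed (10.1% higher and 9.6% lower). With WT MEFs 16 passed, 15 higher and 1 lower, where 11.8% of all names passed (7.04% higher and 4.77% lower). Both comparisons use the same arrays of tumor cells alone. The size of a rise is also given as a share of the MEF level, to be set beside the medians of MEF-typical genes (9.77% and 23.9% with null MEFs, 7.35% and 7.27% with WT MEFs). The MEF level here is that of MEFs sorted from co-culture, not of lone MEFs. Those profiled MEFs carried tumor RNA, and mitomycin C is given only for the MEFs that served as partners. Values "less the MEF share" have this median share taken off on the linear scale and the rest rescaled, as was done for the tumor share in MEFs. They stop at a floor, the lowest signal that counted as measured on the array or the gene's own value if lower. The rescaling was chosen after the data had been seen. With null MEFs 10 of the 18 genes passed less the share, among 15 passes (12 higher and 3 lower). Subtracted without rescaling, 6 of the 18 passed, among 18 passes of which 5 were higher and 13 lower, and the median of all names was -0.38. There Epha8, Robo3, Sema3a, Sema3b and Sema4g lost their pass as well, Sema7a passed, and Sema3f turned to -0.15. With WT MEFs 9 of the 16 passed with rescaling and 7 without, where Ntn1, Sema4b and Sema4g lost their pass as well and Plxna1 passed. With the tumor arrays fitted alone, 8 genes passed with each partner, all higher.

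**Figure D4:**
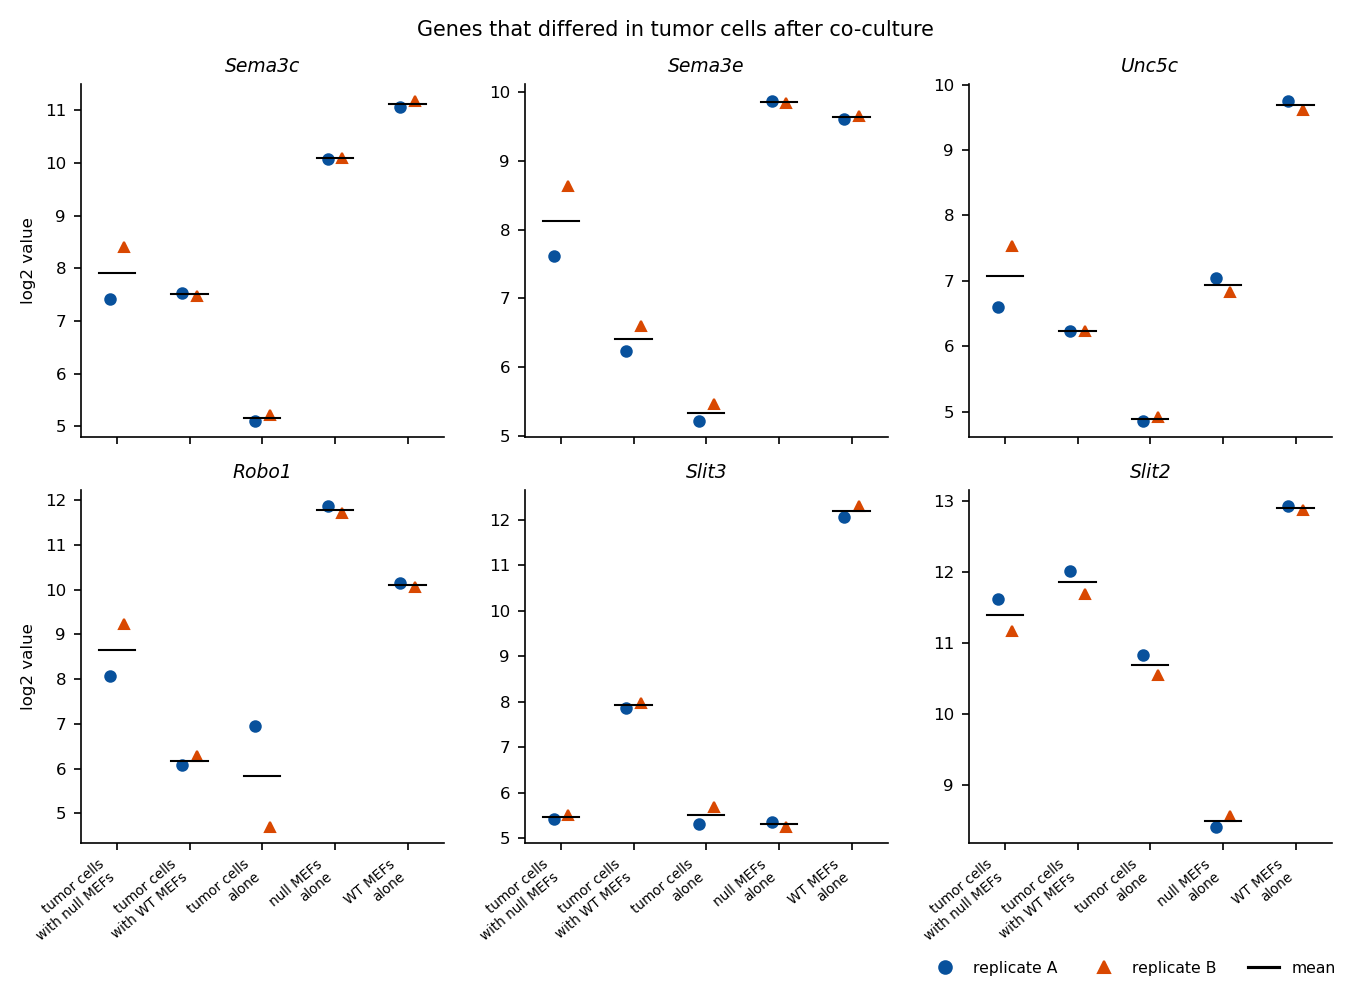
Log2 level on each array (circle, replicate A; triangle, replicate B; line, mean) of 6 guidance genes in tumor cells with null MEFs, with WT MEFs and alone, and in the MEFs alone. Sema3c and Unc5c are higher in both co-cultures than in tumor cells alone. Among the tumor cell groups Robo1 and Sema3e are highest after null MEFs, and Slit3 reads 7.87 and 7.98 with WT MEFs.

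Sema3c read 7.43 and 8.41 in tumor cells with null MEFs and 7.54 and 7.47 with WT MEFs, against 5.11 and 5.21 alone. The co-cultured arrays all lay above the lone ones, at least 6.77-fold with null MEFs (2.76 ± 0.25, adjusted p = 2.99e-05) and at least 5.09-fold with WT MEFs (2.35 ± 0.25, adjusted p = 0.000204). The excess was 17.7% and 39.6% of the level in co-cultured null MEFs and 16.6% and 15.6% of that in co-cultured WT MEFs, above both medians. Less the MEF share Sema3c passed in both (2.06 and 1.80). Unc5c read 6.61 and 7.53 with null MEFs and 6.23 and 6.24 with WT MEFs, against 4.86 and 4.93 alone (at least 4.51-fold and 2.53-fold). With null MEFs its excess was 55.9% and 127.6% of the MEF level and 2.23 remained less the MEF share. With WT MEFs the excess was 8.7% and 8.8%, near the median, and 0.43 remained (adjusted p = 0.403). Sema3e read 7.61 and 8.64 with null MEFs and 6.23 and 6.6 with WT MEFs, against 5.22 and 5.46 alone (2.78 ± 0.26 and 1.08 ± 0.26). Its excess was 19% and 44.0% with null MEFs, where 2.20 remained less the MEF share, and 5.8% and 9.5% with WT MEFs, where 0.12 remained.

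Sema3f read 12.93 and 13.64 with null MEFs and 13.43 and 13.52 with WT MEFs, against 12.03 and 12.09 alone (1.23 ± 0.20 and 1.41 ± 0.20). Its excess with null MEFs, 9.3% and 22.2%, followed the medians and 0.12 remained, while with WT MEFs it was 18.4% and 20.4% and 1.14 remained. Sema3a read 8.15 and 8.38 with null MEFs and 7.81 and 7.77 with WT MEFs, against 7.14 and 7.13 alone (1.13 ± 0.11 and 0.65 ± 0.11). With null MEFs its excess was 17.4% and 23.6% and 0.52 remained. With WT MEFs its excess was 4.5% and 4.1% of the MEF level, below the median, and it turned to -0.62 less the MEF share. Sema3d read 6.46 and 7.84 with null MEFs, against 5.45 and 5.26 alone (1.79 ± 0.43), and did not pass less the MEF share (0.45) or without array B (1.1, adjusted p = 0.114). Sema3b rose by 0.90 ± 0.16 with null and 0.91 ± 0.16 with WT MEFs and passed less the MEF share in both (0.47 and 0.70). Of the membrane-bound semaphorins, Sema4g rose by 0.65 ± 0.13 and 0.56 ± 0.13 and Sema4b by 0.44 ± 0.13 and 0.52 ± 0.13, and both passed less the MEF share (Sema4g at 0.67 and 0.55, Sema4b at 0.67 and 0.58). Sema6a rose by 0.79 ± 0.19 with null MEFs. Sema7a was the 1 gene that fell with null MEFs (-0.45 ± 0.14), and Plxna1 the 1 gene that fell with WT MEFs (-0.41 ± 0.10), and neither passed less the MEF share with rescaling.

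Robo1 read 8.06 and 9.23 with null MEFs, against 6.95 and 4.70 alone. The groups did not overlap, but the gap on slide A was 1.12 and on slide B 4.53, and the pass (2.83 ± 0.57, adjusted p = 0.00648) was lost without null-partner array B (2.24, adjusted p = 0.0594). Its excess was 7.5% and 19.3% of the level in co-cultured null MEFs, below the medians. Less the MEF share it stood at -1.09, which is the floor for subtracted values and not an estimate. Slit3 read 7.87 and 7.98 with WT MEFs, against 5.32 and 5.70 alone, at least 5.34-fold (2.42 ± 0.59, adjusted p = 0.0241). Its excess was 8.4% and 9.2% of the level in co-cultured WT MEFs, close to the median, it did not pass less the MEF share (0.89, adjusted p = 0.439), and it lost its pass with any 1 of the 4 arrays left out. Slit2 read 12.02 and 11.69 with WT MEFs, against 10.83 and 10.55 alone (1.17 ± 0.23). Its excess, 49.3% and 32.8%, lay above the median and 1.12 remained. With null MEFs, at 11.61 and 11.16, it did not pass. Of the Eph receptors, Ephb6 read 9.33 and 9.30 with WT MEFs, against 7.95 and 8.09 alone (1.29 ± 0.16, adjusted p = 0.000458), with an excess of 53.6% and 51.8% and 1.28 remaining. Epha1 read 6.69 and 7.32 with null MEFs, against 5.56 and 5.92 alone (1.27 ± 0.23), and turned to -0.66 less the MEF share. On array B the subtracted Epha1 value stood at the floor, so -0.66 rests on it in part. Epha7 (0.67 ± 0.15) went to -0.35, which is again the floor for subtracted values and not an estimate. Epha8 (0.71 ± 0.19) and Robo3 (0.92 ± 0.23) also rose with null MEFs. Plxna2 read 6.25 and 5.97 with WT MEFs, against 5.10 and 4.5 alone (1.31 ± 0.28), and rose by 0.90 ± 0.28 with null MEFs, and neither passed less the MEF share (0.77 and 0.75). Ntn4 read 6.57 and 7.57 with null MEFs, against 5.49 and 5.80 alone (1.43 ± 0.27), and did not pass less the MEF share (0.81, adjusted p = 0.0702). With WT MEFs Efnb1 rose by 0.99 ± 0.17, Efna2 by 0.59 ± 0.14 and Ntn1 by 0.55 ± 0.15, of which Efnb1 and Ntn1 passed less the MEF share. Without null-partner array B, on which MEF-typical genes stood at 23.9%, Epha7, Epha8, Plxna2, Robo3, Sema4b and Sema7a lost their pass with null MEFs, beside Robo1 and Sema3d. With WT MEFs 7 of the 16 genes passed whichever array was left out.

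Tumor cells from null-MEF cultures were then set directly against those from WT-MEF cultures. Here 8 of 61 genes passed, 5 higher and 3 lower with null MEFs, where 9.49% of all names passed (5.38% higher and 4.11% lower). Sema3e was higher at 7.61 and 8.64 with null MEFs, against 6.23 and 6.6 with WT MEFs (1.71 ± 0.26, adjusted p = 0.00244). It passed without null-partner array B (1.19, adjusted p = 0.00227) and less the MEF share (2.08). With the tumor arrays fitted alone 3 genes passed, all lower, and Sema3e did not (adjusted p = 0.0612). Robo1 was higher by 2.48 ± 0.57, Ntn4 by 1.1 ± 0.27, Robo3 by 1.0 ± 0.23 and Sema3a by 0.48 ± 0.11, and these 4 did not pass without array B (adjusted p from 0.109 to 0.138). Slit3 was at background with null MEFs, at 5.44 and 5.52, against 7.87 and 7.98 with WT MEFs (at least 5.46-fold lower, adjusted p = 0.0265), and lost its pass with any 1 array left out. Efnb1 read 11.29 and 11.71 with null MEFs, against 12.63 and 12.47 with WT MEFs (-1.05 ± 0.17, adjusted p = 0.003), and Ephb6 8.34 and 8.64, against 9.33 and 9.30 (-0.82 ± 0.16). Both passed without array B and less the MEF share (-1.21 and -0.73). Less the MEF share, Slit3 (-1.36) and Robo1 (0.00) did not pass, and Robo1 with null MEFs then stood at the floor for subtracted values. In the MEFs alone, Slit3, Efnb1 and Ephb6 were lower and Robo1 and Robo3 higher in null than in WT MEFs, and Sema3e did not pass.

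The 7 tested genes that passed in no comparison were Efna4, Epha5, Ephb3, Plxnb2, Plxnd1, Sema4a and Slit1. Plxnb2, a receptor of class 4 semaphorins, ranged only from 15.12 to 15.56 and Plxnd1, the receptor of Sema3e, from 11.94 to 12.55 over the 14 arrays. Ephb3 ranged from 15.11 to 15.87, Efna4 from 10.55 to 11.72, Epha5 from 8.79 to 9.72, Sema4a from 7.54 to 8.40 and Slit1 from 5.99 to 6.76. Sema4c was the other gene above 15 on all arrays. For comparison, the ligands Slit3 and Sema3c spanned 7.04 and 6.08.

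A list of 51 other genes of these pathways (co-receptors such as Dcc and Neo1, cytoplasmic partners such as collapsin response mediators) was examined beside the families, of which 50 were on the array and 43 were tested. In null against WT MEFs alone 6 of the 43 were higher and 14 lower (46.5%, where 33.8% of all names passed), with a median of -0.18. Dpysl3, a collapsin response mediator, differed by -2.95 ± 0.23, Ngef, an ephexin that acts with EphA receptors, by -1.96 ± 0.15, Crmp1 by -1.73 ± 0.13 and Farp1, a plexin-A partner, by -1.68 ± 0.12. After co-culture Ngef rose by 3.59 ± 0.15 in null and 3.88 ± 0.15 in WT MEFs, and it was 5.55 ± 0.15 and 3.59 ± 0.15 higher in tumor cells than in null and WT MEFs. In tumor cells 9 of the 43 rose and 3 fell with null MEFs (27.9%, where 19.7% of all names passed). With WT MEFs 9 rose and 2 fell (25.6%, where 11.8% of all names passed). Both were led by Mical1, an enzyme acting downstream of plexin A, at 5.71 ± 0.34 and 4.49 ± 0.34. Mical1 was 7.89 and 9.42 log2 units lower in tumor cells alone than in null and WT MEFs (-7.89 ± 0.34 and -9.42 ± 0.34), and the part of MEF RNA in its rise was not tested.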

How the data were processed

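RNA of 14 cell samples was measured on 1-colour Agilent arrays, for which the labels' protocols give 0.5 µg of RNA labelled with Cy3. The authors deposited a table of log2 values with 1 line per gene name (36413 names after 140 control lines were left out), and how it was normalized is not given in the sources used here. Spot intensities were deposited too, for which the headers name the Agilent scanner software Feature Extraction in version 10.1.1.1 and the submitters' processing notes version 9.1. On the 12 sound arrays the table and the scanner intensities correlated over names at r between 0.977 and 0.991, and 53.1% to 63.4% of spots were well above background. Names with several probes followed the mean of the log2 probe values (r = 0.990) more closely than the listed probe (0.909). The family has 88 probes, and 19 genes have more than 1.

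A linear model with 7 group means was fitted to the authors' log2 values with limma 3.58.1 in R 4.3.3 (7 residual degrees of freedom), over the 25896 names that were well above background on every sound array of at least 1 group. P-values were adjusted by the Benjamini-Hochberg method over all names, at 0.05. A gene not well above background in 1 group is given an "at least" fold, set against the higher of its own value and the lowest signal that counted as measured there. Carry-over of partner RNA was estimated as the median share of genes at least 32-fold higher in the partner, and subtracted on the linear scale as an alternative, with and without rescaling the rest. Shares are of the level in partner cells sorted from co-culture. Subtracted values stopped at a floor, the lowest signal that counted as measured on the array or the gene's own value if lower. Other alternatives were other normalizations, filters and probes, each cell type alone, each array left out, and the replicate letter, which is the slide, as a block. Deviations of same-lettered samples from their group means correlated at 0.092 to 0.599, over 0.1 in 20 of 21 pairs of groups. The scripts were tested on simulated data. The number of arrays limits the precision.

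The members and lists were chosen with earlier results of these data known. Values per array went to genes that passed by at least 1 on the log2 scale, at most 10 per comparison, and to at most 2 per family otherwise, by smallest p; other members are given by difference or name. Tables and figures used Python 3.11.15, pandas 2.3.3, NumPy 2.4.6 and matplotlib 3.10.9. Promoters came from RefSeq.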

Additional observations from a re-analysis of the deposited data

Results flagged for a closer look

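For 10 guidance genes the co-culture response differed between null and WT MEFs by a test of the difference itself (limma, adjusted over all names). More positive in null MEFs were Slit2 at 2.21, Nrp1 at 1.58, Sema5a at 1.09, Robo2 at 0.84, Sema5b at 0.79 and Sema3a at 0.72, all as null minus WT response on the log2 scale. Sema5b was measured in lone WT MEFs only, so its null response is between background values. Less positive in null MEFs were Sema4b at -2.24, Sema6a at -1.40, Sema7a at -0.89 and Sema4g at -0.85. With the tumor share subtracted and the rest rescaled, 3 of the 10 passed (Slit2, Nrp1 and Sema5a), and Sema4b stood at -0.06, Sema6a at -0.29 and Sema7a at -0.21. On the scanner intensities of the 12 sound arrays 0 of the 10 passed with limma, where 8 of the 61 genes had an unadjusted p under 0.05. Groups of 2 arrays are too small to look for single outlying samples.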

How the results depend on the processing

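The counts of passing guidance genes (of 61) stayed within 1.5 times of the reported counts with median centring, quantile normalization of the value table, no filter on dim probes or the filter at 2 groups. With the replicate block all 240 passes of guidance genes over the 10 comparisons were kept, and only tumor cells with null against with WT MEFs moved by over 1.5 times, to 13 passes. With each array left out in turn, where a lone remaining array is assumed to vary like the other groups, the counts ranged from 9 to 10 for tumor cells with WT MEFs against alone, 10 to 17 for tumor cells with null MEFs against alone, 3 to 13 for tumor cells with null against with WT MEFs, 10 to 12 for WT MEFs and 6 to 10 for null MEFs with tumor cells against alone, 36 to 40 for null against WT MEFs alone, 31 to 36 for them in co-culture, 4 to 11 for the difference of responses, and 38 to 43 and 43 to 46 for tumor cells against WT and null MEFs. The genes that passed in every such fit numbered 7 of 16, 9 of 18, 3 of 8, 10 of 15, 6 of 8, 35 of 42, 31 of 35, 4 of 10, 38 of 42 and 43 of 46, in the same order. On the scanner intensities of the 12 sound arrays the counts were 7 for tumor cells after WT MEFs, 9 after null MEFs, 3 between the 2 partners, 6 for WT and 3 for null MEFs with tumor cells, 22 for null against WT MEFs in co-culture, and 0 for the difference of responses by limma (8 at an unadjusted p under 0.05). There Nrp2 in null MEFs turned to -0.040 and Ephb6 in tumor cells against WT MEFs to 0.33. Taken singly, the probes of both genes kept the sign of the main result, at 0.65 and 1.67 for Nrp2 and -1.45 and -0.70 for Ephb6. With normexp and quantile normalization on these arrays the counts were 7, 9 and 4 for the tumor cell comparisons, 5 for null MEFs and 4 for the difference of responses. With the listed probe only, chosen after seeing the data, they were 7, 8 and 3, then 5 for WT and 3 for null MEFs, 19 for null against WT MEFs in co-culture and 0 for the difference (9 at an unadjusted p under 0.05). Plxna4 turned to -0.18 and -0.020 in null against WT MEFs alone and in co-culture and to 0.77 in tumor cells against null MEFs, and Epha7 to 0.23 and Sema6d to -0.57 in tumor cells against WT MEFs. These settings use fewer arrays. With each cell type fitted alone the tumor cell counts were 8, 8 and 3. With the carry-over subtracted, 8 passed in tumor cells after WT MEFs (7 of the 16), 18 after null MEFs (5 higher and 13 lower, 6 of the 18 kept, against 17 higher and 1 lower) and 16 between the 2 partners. With WT MEFs as partners Sema3a turned to -0.73. In tumor cells sorted from null MEFs Efna2 was -0.39, Epha1 -0.74, Epha7 -0.35, Robo1 -1.09, Sema3f -0.15 and Sema4d -1.88, and against WT partners Epha1 was -1.06, Epha7 -0.43 and Sema4d -1.35. With the rest rescaled as well, added after seeing the data, the counts were 14 between partners, 4 for null MEFs and 4 for the difference of responses. Sema3a was -0.62 after WT MEFs. After null MEFs Epha1 was -0.66, Epha7 -0.35, Robo1 -1.09 and Sema4d -1.88, and against WT partners Epha1 was -1.10, Epha7 -0.54 and Sema4d -1.46. Epha7, Robo1 and Sema4d after null MEFs had the same value with and without rescaling, the floor for subtracted values. They are not estimates, and the Epha7 and Sema4d differences from WT partners rest on that floor too. Epha1 after null MEFs stood at the floor on array B, so its values, also against WT partners, rest on the floor in part. In WT MEFs with tumor cells Epha2 was -2.06, Sema3g -1.23, Sema4b -0.34 and Sema6b -1.31, and in null MEFs Epha2 was -0.21. Between co-cultured null and WT MEFs Sema3g was 1.08, Sema4b 0.96 and Sema6a 0.081. The cause of these changes was not tested for any setting, also not for those that use fewer arrays. Values near the background of the array, such as Slit3 in null MEFs, are bounds.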
